A study of Mus musculus with 6 samples.

Results

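A set of 9 genes of semaphorin guidance was followed through the cells of the mouse embryonic heart region. They are 4 secreted class 3 semaphorins (Sema3a, Sema3c, Sema3d and Sema3e), both neuropilins (Nrp1 and Nrp2) and 3 plexins (Plxna2, Plxna4 and Plxnd1). The members were picked by symbol, and all 9 were found among the 32285 genes of the deposited matrix. The data are single-cell RNA counts from the microdissected cardiogenic region of wild type C57BL/6 embryos at E10.5, when the heart tube has looped. Per the labels, 3 samples came from normal glycemic females pretreated with vehicle and 3 from hyperglycemic females pretreated with streptozotocin, a drug toxic to insulin-producing cells. All males were normal glycemic. The labels list non-cardiac mesoderm, ectoderm and endoderm among the lineages present, and the design text speaks of craniopharyngeal as well as cardiac cells.

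The 6 libraries were pooled in 1 matrix and are told apart by a number at the end of each cell barcode. No file used here ties that number to a sample, so vehicle and streptozotocin were not compared. The question addressed here is where each member was expressed. The libraries are numbered as in the barcodes, carry no treatment label, and were described one by one, without a test between them.

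Class 3 semaphorins are secreted cues that repel or attract growing axons, migrating neural crest cells and endothelial cells. Most of them bind a neuropilin on the receiving cell, and the neuropilin passes the signal on through a plexin of the A group or plexin D1. Sema3e is the textbook exception, since it binds plexin D1 directly. Neuropilins also bind vascular endothelial growth factors. In the heart these genes are known for the entry of cardiac neural crest into the outflow tract, for septation of that vessel, and for patterning of blood vessels.

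Of 53362 barcodes, 35962 held at least 2500 detected genes and at most 10% mitochondrial counts and were kept as cells. Libraries held 4903 to 7136 cells, with medians of 30533 to 35634 unique molecular identifiers (UMIs) per cell and 195763232 to 245913073 UMIs in all. A UMI marks 1 captured RNA molecule. A cell was given a type when enough genes of a marker list had at least 2 UMIs each, and no member was a marker. This gave 19752 cells in 17 types of 50 or more cells and in smaller ones (42 megakaryocytes and 12 hepatocytes, not described further). Another 14822 cells passed no gate and 1388 passed several. The share of cells at the minimum number of markers was 81.7% in anterior heart field, 78.4% in branchiomeric muscle and between 60.0% and 71.4% in surface ectoderm, paraxial mesoderm, smooth muscle and mural cells, foregut mesenchyme and posterior heart field. It was 43.4% or less in the other 10 types, with 17.5% in epicardium, 12.2% in endothelium and 8.27% in cardiomyocytes. The type names below are names of gates. Among kept cells, 283 (0.787%) had a barcode sequence that also belonged to a kept cell of another library. Against all 53362 barcodes that number was 2890 (8.04%), between 75 and 897 cells per library.

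Levels (CPM) are the UMIs of a gene per 1000000 UMIs, both summed over all cells of a type. Intervals are 95% exact Poisson intervals, and ratios carry the interval that follows from the exact binomial one. Counting error is all they cover. A library was used for a type where it held at least 20 cells of it. Library 1 and library 2 thus gave no foregut mesenchyme value, library 3 no neuron value, library 1 no crest and glia value, and no library a myeloid value. The counting was at the 3′ end, and levels are compared between cells, not between genes.

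In GRCm38, the 4 ligand genes lie within 5.35 megabases of mouse chromosome 5, a stretch with 21 protein-coding genes. They are Sema3d (ENSMUSG00000040254, chr5:12383385-12588948, plus strand), Sema3a (ENSMUSG00000028883, chr5:13125414-13602565, plus strand), Sema3e (ENSMUSG00000063531, chr5:14025276-14256689, plus strand) and Sema3c (ENSMUSG00000028780, chr5:17574281-17730268, plus strand). The neuropilin genes are Nrp1 (ENSMUSG00000025810, chr8:128358604-128503363, plus strand) and Nrp2 (ENSMUSG00000025969, chr1:62703285-62818695, plus strand). The plexin genes are Plxna2 (ENSMUSG00000026640, chr1:194618218-194816869, plus strand), Plxna4 (ENSMUSG00000029765, chr6:32144268-32588192, minus strand) and Plxnd1 (ENSMUSG00000030123, chr6:115954811-115995005, minus strand). Of the 9 members, 8 matched a RefSeq promoter entry of GRCm38.p6. The 250 bases before the start site of the RefSeq entry, which for Sema3d lies upstream of the gene start given above, are shown for 2 ligands of the chromosome 5 group whose levels were highest in different cell types, and for Plxnd1, the member whose highest type stood farthest above the next. Capitals mark CG dinucleotides, and each sequence reads 5′ to 3′ on the strand of its gene.
Sema3d, chr5:12382916-12383165, plus strand: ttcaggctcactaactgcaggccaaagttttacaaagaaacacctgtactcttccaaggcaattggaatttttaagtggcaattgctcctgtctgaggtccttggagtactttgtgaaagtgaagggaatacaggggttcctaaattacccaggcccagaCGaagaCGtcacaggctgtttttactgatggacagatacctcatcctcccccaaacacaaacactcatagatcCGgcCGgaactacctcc
Sema3e, chr5:14025026-14025275, plus strand: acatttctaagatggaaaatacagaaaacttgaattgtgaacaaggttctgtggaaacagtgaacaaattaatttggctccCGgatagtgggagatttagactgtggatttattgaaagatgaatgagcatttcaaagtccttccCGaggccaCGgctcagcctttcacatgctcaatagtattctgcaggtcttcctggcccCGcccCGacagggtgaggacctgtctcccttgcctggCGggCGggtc
Plxnd1, chr6:115995006-115995255, minus strand: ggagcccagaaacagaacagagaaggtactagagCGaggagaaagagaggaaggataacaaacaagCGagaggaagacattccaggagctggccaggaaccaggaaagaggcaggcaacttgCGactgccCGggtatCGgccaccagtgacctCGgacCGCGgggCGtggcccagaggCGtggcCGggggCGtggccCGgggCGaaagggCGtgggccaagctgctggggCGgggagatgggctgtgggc
The Sema3d window held 4 CG dinucleotides, the Sema3e window 7 and the Plxnd1 window 16, against a median of 6 over 32851 windows of the same length. The ratio of observed to expected CG was 0.296 for Sema3d, 0.488 for Sema3e and 0.668 for Plxnd1 (median of all windows 0.373). The letters GGGCGG, searched on both strands as the GC box, occurred 2 times in the Sema3e window and 1 time in the Plxnd1 window, were not found in the Sema3d window, and were present in 32.7% of all windows. The letters TATAAA, searched likewise, were in none of the 3 windows shown and in 12.4% of all windows.

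**Figure D1:**
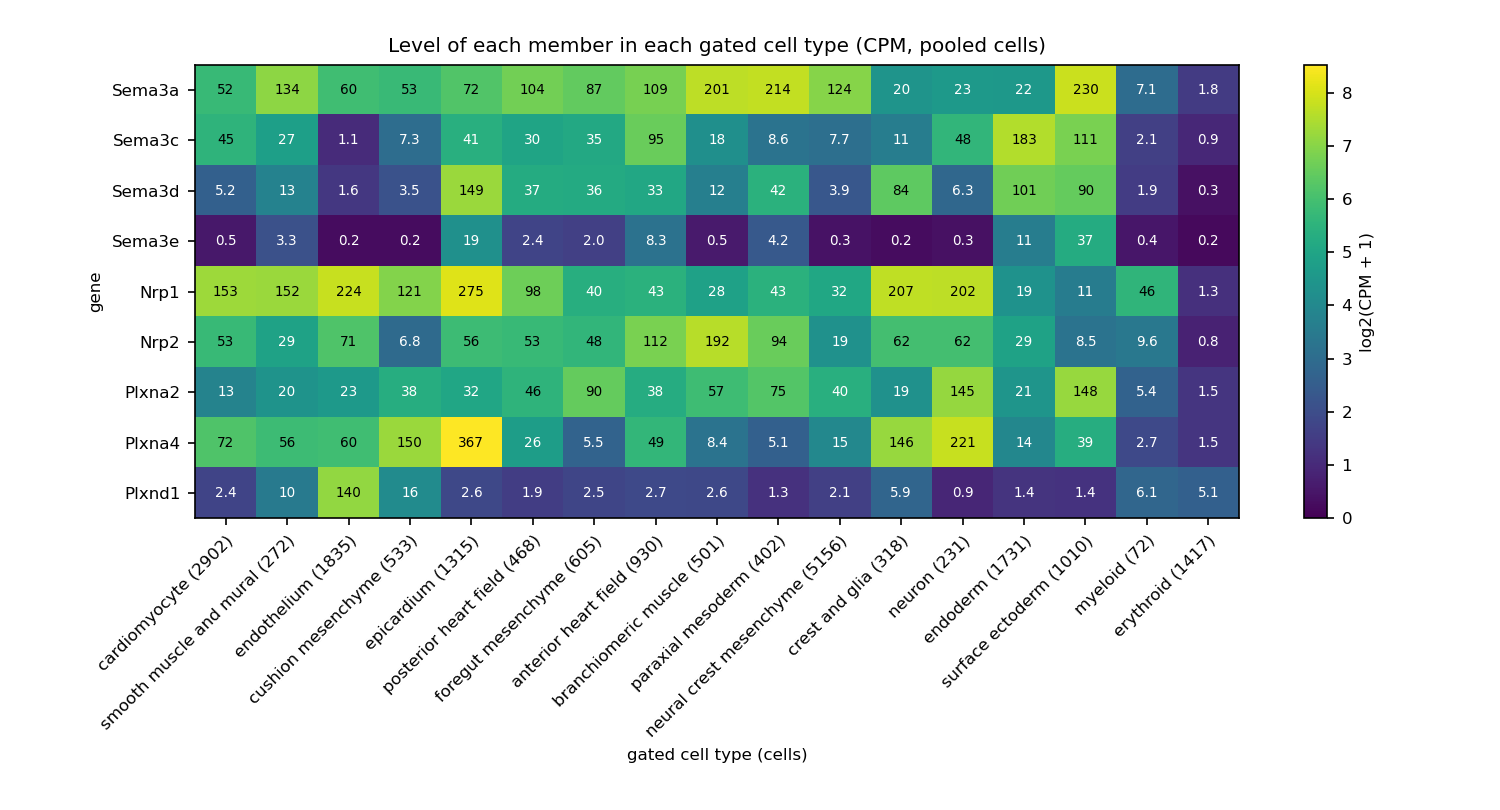
Level of each member (rows) in each of 17 gated cell types (columns, with their number of cells), in CPM over pooled cells. Colour is log2(CPM + 1) and the printed numbers are CPM. Plxnd1 stands at 140.4 CPM in endothelium and at 16.4 CPM or less in every other type, whereas Sema3a is above 50 CPM in 12 of the 17 types.

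The 9 members had their highest levels in 5 of the 17 types. Epicardium held the highest level of Sema3d, Nrp1 and Plxna4, and surface ectoderm that of Sema3a, Sema3e and Plxna2. Sema3c was highest in endoderm, Nrp2 in branchiomeric muscle and Plxnd1 in endothelium. Of all genes that reached 10 CPM, 5.27% were highest in epicardium and 10.3% in surface ectoderm. The highest type was at least 2-fold above the next for 1 of 9 members (Plxnd1), and 15.8% of the 11907 genes that reached 10 CPM in some type passed that rule. The highest type led the next one in every library compared for 7 of 9 members, all but Sema3a and Plxna2, against 40.0% of the 9248 genes with a library to compare. The members' highest levels ran from 37.1 to 367 CPM, and the shares over all genes were not matched for level. Ordered by level, each member gave 15 pairs of neighbouring types with library values. In 14 of these 135 pairs the ranges over libraries did not overlap. Both types of a pair come from the same libraries, and in 31 of the 135 pairs the upper type was higher in every library that held both. Neither count was made over all genes, so whether the members differ from other genes in them is not known. Overlap is therefore given below with the number of libraries for the leading pairs.

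**Figure D2:**
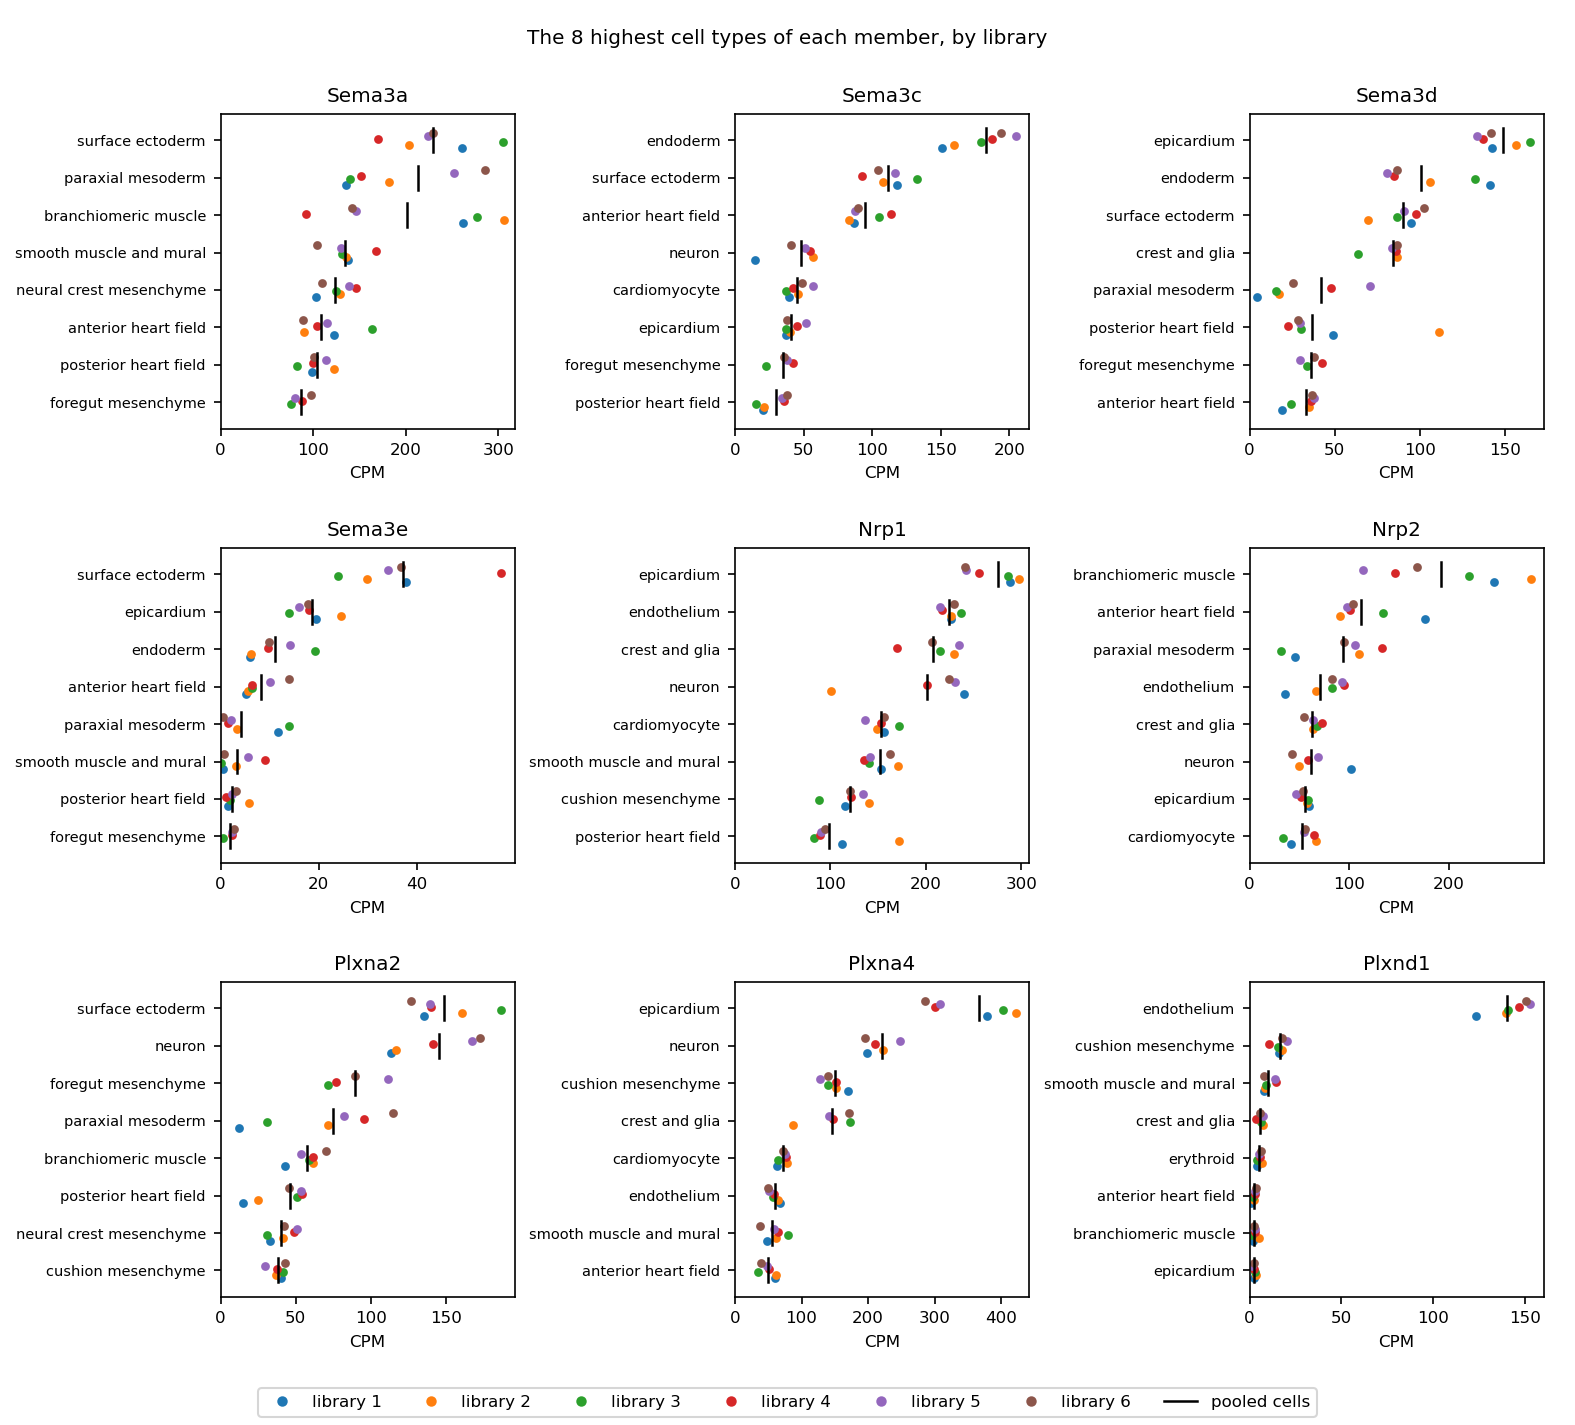
CPM of each member in the 8 cell types where it was highest, among types with library values. Points are the 6 libraries and the vertical line is the level over pooled cells. Library points of neighbouring types overlap in most places, with epicardium for Nrp1 and Plxna4, endoderm for Sema3c and endothelium for Plxnd1 clear of the type below them.

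Sema3a, the class's founding repellent for axons, was above 50 CPM in 12 of the 17 types. Its level was 229.8 CPM in surface ectoderm (224 to 236), 214 CPM in paraxial mesoderm and 201 CPM in branchiomeric muscle, the head muscle precursors of the pharyngeal arches. Over libraries, surface ectoderm had lowest 170.2, median 227 and highest 305 CPM. Paraxial mesoderm had lowest 135, median 167 and highest 286 CPM. Surface ectoderm was the higher of the pair in 4 of 6 libraries and the ranges overlapped, so their order was not settled by these libraries.
A middle group followed, with smooth muscle and mural cells at 134, neural crest mesenchyme at 124, anterior heart field at 109, posterior heart field at 104, foregut mesenchyme at 87.1 and epicardium at 72.3 CPM. Endothelium, cushion mesenchyme and cardiomyocytes lay close together at 59.6, 53.5 and 52.1 CPM. Neurons, endoderm and crest and glia were low, at 23.3, 22.5 and 20.1 CPM. Below them were myeloid cells at 7.12 CPM and red blood cells, the type used here to read background, at 1.77 CPM. The summed erythroid markers had a median of 359563 CPM in red blood cells, against 95.3 CPM in surface ectoderm, the highest other type. All erythroid levels, and erythroid shares of cells at reduced depth, are lowered by this against other types. They were not corrected for it, so the background may be read too low. Crest and glia against erythroid was the only neighbouring pair without overlap. The 2 epithelia differed, with surface ectoderm 10.2 times endoderm (9.63 to 10.8) and higher in 6 of 6 libraries. The gates share markers, and endoderm cells carried the summed surface ectoderm list at a median of 1004 CPM (their own list 1426), while surface ectoderm cells carried the endoderm list at 821 CPM (their own 1481). Cells that passed no gate held 156 CPM, above all but 3 of the gated types, so part of the cells with much Sema3a lay outside the gates.

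Among whole types, Sema3c, the ligand known for drawing neural crest cells into the outflow tract, was highest in the epithelia and in anterior heart field. Endoderm had 183 CPM (179.7 to 187), with lowest 151, median 183 and highest 205 CPM over libraries. Surface ectoderm had 111 CPM, with lowest 92.8, median 112 and highest 133 CPM. The 2 ranges did not overlap, endoderm was higher in 6 of 6 libraries, and the ratio was 1.64 (1.58 to 1.71).
Anterior heart field and pharyngeal mesoderm, the progenitors that build the outflow tract and right ventricle, had 94.9 CPM. Posterior heart field, which feeds the inflow side, had 30.2 CPM. The anterior field was 3.14 times the posterior one (2.84 to 3.48) and higher in 6 of 6 libraries. Its library range of 83.2 to 114 CPM was also clear of the type next below, neurons, at 47.8 CPM. Cardiomyocytes (45.2), epicardium (40.6), foregut mesenchyme (34.7) and smooth muscle and mural cells (26.8 CPM) each overlapped their neighbours in the order. Branchiomeric muscle, crest and glia, paraxial mesoderm, neural crest mesenchyme and cushion mesenchyme ranged from 18.1 down to 7.28 CPM. Myeloid cells held 10 UMIs of Sema3c in all (2.09 CPM). Endothelium, at 1.08 CPM, was close to the erythroid level of 0.925 CPM, which was not corrected for the erythroid markers.

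Sema3d, a ligand known from vein and crest patterning, was highest in epicardium, a gate named for the outer layer of the heart. Epicardium had 149 CPM (146 to 152), with lowest 134, median 142 and highest 165 CPM over libraries. Endoderm had 101 CPM, with lowest 81.0, median 96.4 and highest 141 CPM. Epicardium was higher in 6 of 6 libraries by a pooled ratio of 1.48 (1.43 to 1.52), although the library ranges overlapped.
Surface ectoderm (89.9 CPM) and crest and glia (84.4 CPM) came next. Crest and glia, cells with Sox10-type markers, held 21.4 times the Sema3d level of neural crest mesenchyme (3.94 CPM) and were higher in 5 of 5 libraries. These cells carried the neural crest mesenchyme list at a median of 683 CPM, near their own list at 773 CPM. Cells that passed both gates went to crest and glia, which holds wherever this pair is compared. Paraxial mesoderm (42.2 CPM) differed widely between libraries, from 4.51 to 70.7 CPM. Posterior heart field had 36.6 CPM, and library 2 alone held 111 CPM there against 22.7 to 49.2 CPM in the other 5. Foregut mesenchyme (36.2) and anterior heart field (33.2 CPM) were at a like level. The foregut mesenchyme and posterior heart field lists share Foxf1, Wnt2 and Tbx5, and cells that passed both gates went to foregut mesenchyme. Foregut mesenchyme cells carried the posterior heart field list at a median of 1189 CPM, above their own list at 1065 CPM, which these rules partly set. The 2 gates overlap in this way wherever they are named. The remaining types ran from smooth muscle and mural cells (12.9) and branchiomeric muscle (11.8) through neurons (6.27), cardiomyocytes (5.19), cushion mesenchyme (3.45), myeloid cells (1.88) and endothelium (1.63) to erythroid cells at 0.298 CPM.

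Sema3e, the plexin D1 ligand, was found mainly in surface ectoderm, epicardium, endoderm and anterior heart field. Surface ectoderm had 37.1 CPM (34.9 to 39.4), with lowest 23.9, median 35.5 and highest 57.0 CPM over libraries. Epicardium had 18.6 CPM, with lowest 14.03, median 17.9 and highest 24.5 CPM. Surface ectoderm led in 6 of 6 libraries, with ranges that overlapped slightly, and the pooled ratio was 1.997 (1.84 to 2.17), just under the 2-fold rule. With 1 more marker required per gate the ratio was 1.29.
Endoderm (11.2 CPM) and anterior heart field (8.34 CPM) were lower. Paraxial mesoderm, smooth muscle and mural cells, posterior heart field and foregut mesenchyme ranged from 4.18 down to 2.03 CPM. The other 9 types held between 0.159 and 0.539 CPM, which in cushion mesenchyme is 4 UMIs over 533 cells. Cardiomyocytes, at 0.470 CPM, lay 39.5-fold below epicardium (30.7 to 51.6). Sema3d separated the same pair of gated types by 28.7-fold (26.5 to 31.0), and epicardium was the higher in 6 of 6 libraries for both ligands.

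Nrp1, the receptor shared by most class 3 ligands and by vascular endothelial growth factor A, was high in epicardium, endothelium, nerve-associated cells and heart muscle. Epicardium had 275 CPM (271 to 279), with lowest 241, median 271 and highest 297 CPM over libraries. Endothelium had 224 CPM, with lowest 215, median 226 and highest 237 CPM. The ranges did not overlap, epicardium led in 6 of 6 libraries, and the ratio was 1.23 (1.201 to 1.25).
Crest and glia (207), neurons (202), cardiomyocytes (153), smooth muscle and mural cells (152) and cushion mesenchyme (121 CPM) followed with overlapping ranges. Posterior heart field, at 98.2 CPM, was above anterior heart field, at 42.7 CPM, in 6 of 6 libraries and without overlap. For Sema3c and Nrp1 the pair of heart fields thus stood in opposite order. Myeloid cells (46.5), paraxial mesoderm (42.6), foregut mesenchyme (40.0), neural crest mesenchyme (32.5) and branchiomeric muscle (28.1 CPM) were lower. Endoderm (19.3 CPM) and surface ectoderm (11.1 CPM), both sources of ligand transcripts, were the lowest types above erythroid cells (1.28 CPM).

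Nrp2, a receptor known from veins, lymphatics and axons, was highest in branchiomeric muscle. The level there was 192 CPM (185 to 199), with lowest 114, median 194 and highest 283 CPM over libraries. Anterior heart field had 112 CPM, with lowest 90.5, median 102 and highest 176 CPM. Branchiomeric muscle was higher in 6 of 6 libraries, with overlapping ranges and a pooled ratio of 1.72 (1.64 to 1.804). The summed anterior heart field markers had a median of 801 CPM in branchiomeric muscle cells and 795 CPM in the anterior heart field cells, so the 2 gates share marker expression.
Paraxial mesoderm (94.0), endothelium (70.7), crest and glia (62.5), neurons (61.8), epicardium (55.9), cardiomyocytes (53.1), posterior heart field (53.1) and foregut mesenchyme (47.6 CPM) each overlapped the next. Endoderm (29.2), smooth muscle and mural cells (29.2), neural crest mesenchyme (18.8), myeloid cells (9.63), surface ectoderm (8.54) and cushion mesenchyme (6.79 CPM) were lower, and erythroid cells held 0.776 CPM. None of the 15 neighbouring pairs was free of overlap. Across types that are not neighbours the differences were larger. Endothelium as a whole held 10.4 times the level of cushion mesenchyme (8.72 to 12.5, 6 of 6 libraries). The endocardial subset described further on was at 16.4 CPM, nearer to the 6.79 CPM of cushion mesenchyme than to the vascular subset at 165 CPM.

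Plxna2, a plexin known from migrating cardiac crest, was highest in surface ectoderm (148 CPM, 144 to 153) and neurons (145 CPM, 136 to 154). Over libraries surface ectoderm had lowest 127, median 139 and highest 187 CPM. Neurons had lowest 113, median 141 and highest 173 CPM. Surface ectoderm was the higher in 2 of 5 libraries and the ratio of 1.02 had an interval of 0.954 to 1.10, so this pair was not separated.
Foregut mesenchyme (89.5) and paraxial mesoderm (74.9 CPM) came next, with paraxial mesoderm running from 12.6 to 115 CPM between libraries. Branchiomeric muscle (57.3), posterior heart field (45.9), neural crest mesenchyme (40.4), cushion mesenchyme (38.3), anterior heart field (37.6) and epicardium (31.9 CPM) each overlapped the next. Endothelium (23.1), endoderm (20.9), smooth muscle and mural cells (19.9), crest and glia (19.0) and cardiomyocytes (12.96 CPM) were lower, above myeloid (5.44) and erythroid cells (1.49 CPM). Surface ectoderm exceeded endoderm 7.08-fold (6.64 to 7.55) in 6 of 6 libraries.

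Plxna4, best known as a plexin of sensory and sympathetic axons, was higher in epicardium than in neurons. Epicardium had 367 CPM (362 to 371), with lowest 286, median 343 and highest 422 CPM over libraries. Neurons had 221 CPM, with lowest 195, median 210.1 and highest 248 CPM. Epicardium led in 5 of 5 libraries without overlap, at a ratio of 1.66 (1.58 to 1.75).
Cushion mesenchyme (149.9 CPM) and crest and glia (146 CPM) formed the next level and did not separate from each other. Neurons lay above cushion mesenchyme, and crest and glia above cardiomyocytes, without overlap. Cardiomyocytes (71.6), endothelium (59.5), smooth muscle and mural cells (56.1), anterior heart field (49.5), surface ectoderm (38.9) and posterior heart field (26.0 CPM) followed. Neural crest mesenchyme (14.9), endoderm (14.4), branchiomeric muscle (8.44), foregut mesenchyme (5.49), paraxial mesoderm (5.11), myeloid (2.72) and erythroid cells (1.49 CPM) were lowest. The epicardial level was 5.12 times that of cardiomyocytes (5.00 to 5.24), and that of crest and glia was 9.85 times neural crest mesenchyme (9.32 to 10.4).
On the opposite strand, 3 genes, Plxna4os1, Plxna4os2 and Plxna4os3, overlap Plxna4 and held 579, 94 and 993 UMIs over all barcodes, against 76300 for Plxna4. The Sema3e gene overlaps Gm4128 (315 UMIs against 5580) and Nrp2 overlaps Gm29083 (34 against 62301), each on the opposite strand. No overlapping gene in the matrix was on the same strand as a member.

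Plxnd1, the endothelial plexin, was the member with the widest gap between its highest type and the next. Endothelium had 140.4 CPM (138 to 143), with lowest 124, median 144 and highest 153 CPM over libraries. Cushion mesenchyme had 16.4 CPM, with lowest 10.45, median 16.7 and highest 20.6 CPM. The ranges were far apart, endothelium led in 6 of 6 libraries, and the ratio was 8.54 (7.62 to 9.60). The summed endothelial markers had a median of 191 CPM in cushion mesenchyme cells, 1968 CPM in endothelium and 31.4 CPM in smooth muscle and mural cells. The part of this in the cushion level was not tested.
Smooth muscle and mural cells held 10.3 CPM, myeloid cells 6.07 CPM and crest and glia 5.88 CPM. Erythroid cells held 5.06 CPM, above anterior heart field (2.66 CPM) in 6 of 6 libraries without overlap, so they were not read as background for Plxnd1. The erythroid level was not corrected for the erythroid markers, so its order against myeloid cells and crest and glia is not settled. The other 11 types ranged from 0.875 CPM in neurons to 2.66 CPM in anterior heart field. Its direct ligand Sema3e was at 0.211 CPM in endothelium, which is 17 UMIs over 1835 cells.

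Cells with a UMI were counted after each cell had been reduced at random to 5000 UMIs, with 4 shallower cells left out. Plxnd1 was found in 47.4% of endothelium (95.3% at full depth), 2.75% of erythroid cells (27.4%) and 0.433% of neurons (2.16%), at median depths of 39702, 64432 and 28099 UMIs. Plxna4 was found in 71.6% of epicardium (91.7% at full depth) and Nrp1 in 67.9% (96.7%), against 0.494% and 0.494% of erythroid cells. For ligands the highest shares among the types were 52.0% of surface ectoderm for Sema3a, 49.6% of endoderm for Sema3c, 45.02% of epicardium for Sema3d and 13.2% of surface ectoderm for Sema3e. In erythroid cells the ligands were at 0.494%, 0.494%, 0.0706% and 0% in the same order. All erythroid shares given here are lowered, since erythroid markers take up part of the UMIs of each cell. At full depth the order turned for Sema3e (29.3% of surface ectoderm, 35.8% of epicardium). It also turned for Sema3a (82.6% of surface ectoderm, 83.3% of paraxial mesoderm). A count of 0 is given with the limit that 3 counts set, which for 0 of 1417 cells is 0.212% (exact binomial upper bound 0.260%). It limits cells with a UMI at this depth, not cells that express the gene.

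Within cardiomyocytes the members differed between chambers and outflow tract. Of 2902 cardiomyocytes, further markers set apart 984 ventricular, 761 atrial and 209 outflow cells, and 948 fell in no subset. Outflow cells had at least 3 of 6 outflow markers (Isl1, Tdgf1, Wnt11, Bmp4, Rgs5 and Fgf10) and at most 2 ventricular and 3 atrial markers. Library 3 held 14 outflow cells and gave no value for them, and library 4 held 22. The median depth was 29366 UMIs in outflow, 39988 in atrial and 56475 in ventricular cells. The gates count markers with at least 2 UMIs and were not corrected for depth.
Among the 3 subsets Nrp2 was highest in outflow cells. It was at 488 CPM in outflow cells, with 439, 516, 570.5, 516 and 459 CPM in libraries 1, 2, 4, 5 and 6. In ventricular cells it was at 6.49 CPM, with lowest 4.12, median 6.43 and highest 8.26 CPM, and in atrial cells at 8.09 CPM, with lowest 4.50, median 7.94 and highest 15.4 CPM. The ranges were more than an order of magnitude apart, and the ratio of outflow to ventricular was 75.2 (67.5 to 83.9, 5 of 5 libraries) and to atrial 60.4 (53.3 to 68.6, 5 of 5), or 98.3 without marked doublets. The outflow level also lay above the 192 CPM of branchiomeric muscle, the highest whole type. The 948 cardiomyocytes in no subset held 3441 of the 7232 Nrp2 UMIs of cardiomyocytes (47.6%). Their level was 88.2 CPM (85.3 to 91.2), with lowest 55.5, median 85.1 and highest 115 CPM over libraries, so Nrp2 in cardiomyocytes was not limited to the cells named outflow here.
Sema3c had the same leading subset, at 131 CPM, with 132, 155, 131, 155 and 57.7 CPM over the same 5 libraries. The pooled outflow level lay between those of the whole types endoderm (183 CPM) and surface ectoderm (111 CPM). Ventricular cells had 22.6, atrial cells 23.1 and cells in no subset 83.0 CPM. Outflow was above both chambers in 5 of 5 libraries, by 5.81-fold (5.32 to 6.34) over ventricular cells, and library 6 stood lower than the other 4. Outflow cells had less of the cardiomyocyte markers (median of the summed list 8623 CPM, against 21855 in ventricular and 25824 in atrial cells) and more of the anterior heart field list (1110.1 against 223 and 307 CPM), which shares genes with the outflow gate. The part of these differences in the Nrp2 and Sema3c levels was not tested.
Plxnd1 was low in all 3 subsets, at 5.58, 2.94 and 1.73 CPM in outflow, atrial and ventricular cells.

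**Figure D3:**
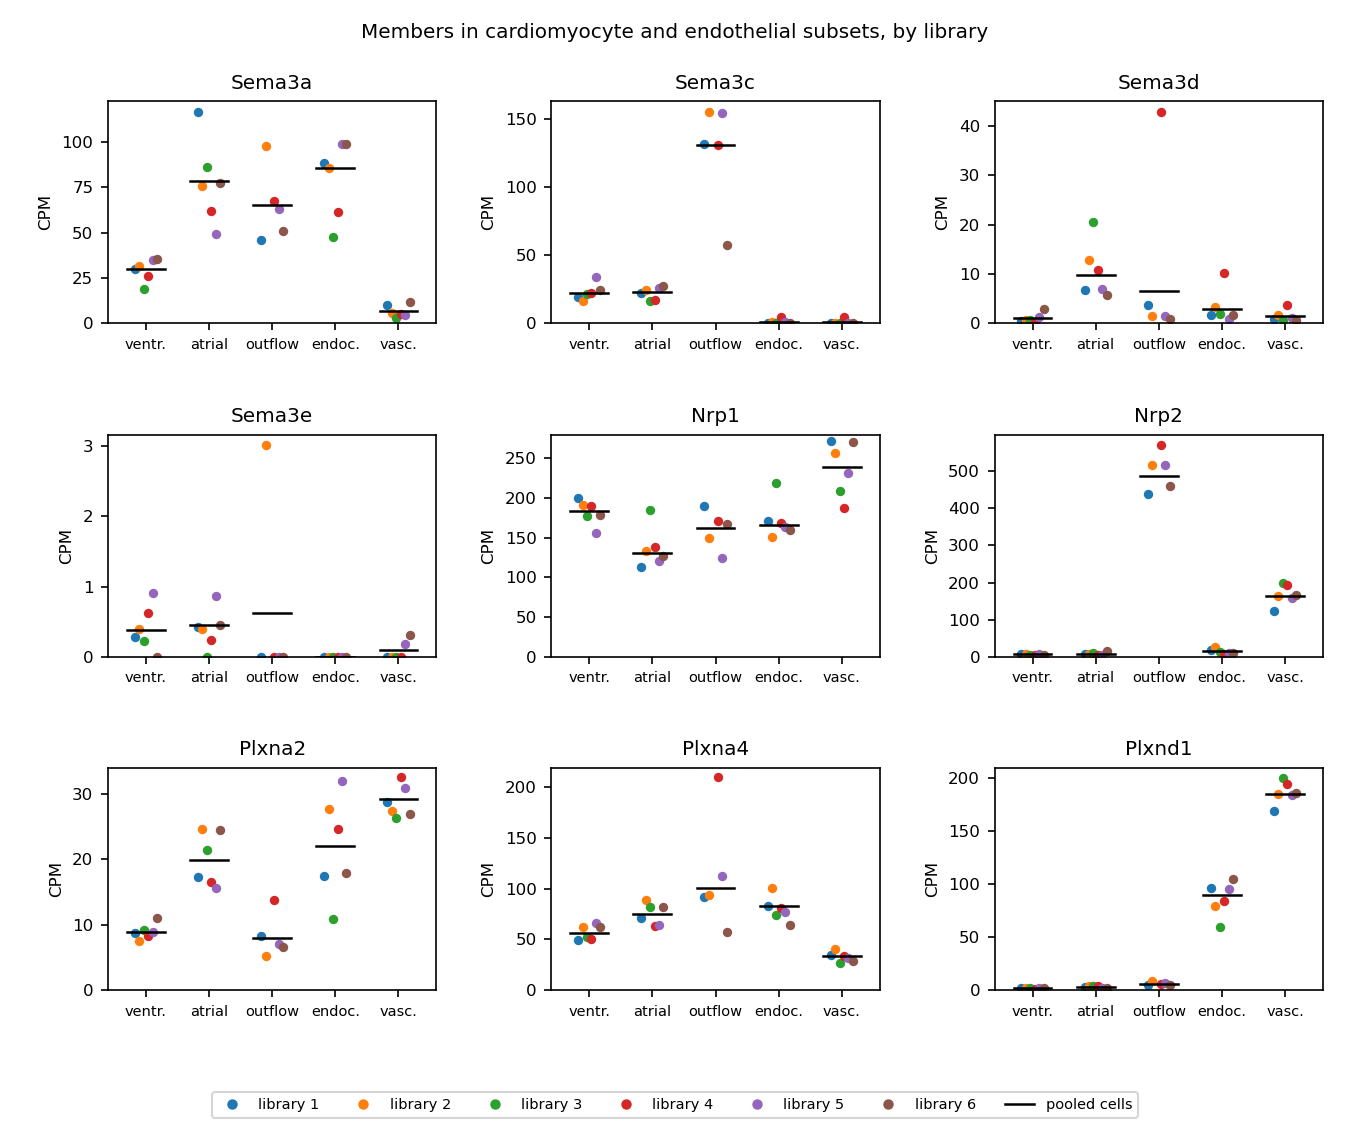
CPM of each member in ventricular, atrial and outflow cardiomyocytes and in endocardial (endoc.) and vascular (vasc.) endothelium. Points are libraries and lines the pooled cells. Outflow points of Nrp2 lie between 439 and 570.5 CPM, and vascular points of Sema3a lie below all endocardial ones.

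Of the other members, Sema3a, Plxna2, Sema3d and, at its low level, Plxnd1 were higher in atrial than in ventricular cells in every library. The Plxnd1 ratio was 1.70 (1.27 to 2.27, 6 of 6 libraries), from 98 UMIs in atrial and 99 in ventricular cells. Sema3a was 2.64 times as high in atrial cells (78.5 against 29.8 CPM, 6 of 6 libraries). Plxna2 was 2.23 times as high (19.9 against 8.90 CPM, 6 of 6). Sema3d was 9.73 times as high (9.86 against 1.01 CPM, 6 of 6), from 58 UMIs in the ventricular cells, and the ratio was 15.4 without library 6 and 16.5 without the shared barcodes.
Plxna4 was 1.33 times as high in atrial cells (1.26 to 1.40, 5 of 6 libraries). Nrp1 ran the other way, at 184 CPM in ventricular and 131 CPM in atrial cells, with atrial the higher in 1 of 6 libraries. Sema3c did not separate the chambers, with a ratio of 1.02 (0.935 to 1.12). In outflow cells Sema3d rested on library 4 (42.8 CPM, against 0.931 to 3.79 in the other 4 libraries), and Plxna4 had 210.0 CPM in that library against 56.8 to 112.

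Of 1835 endothelial cells, 426 were set apart as endocardial, the lining of the heart, and 508 as vascular, and 901 fell in neither subset. Nrp2 was at 165 CPM in vascular cells, with lowest 124, median 165 and highest 199 CPM over libraries. In endocardial cells it was at 16.4 CPM, with lowest 7.23, median 12.6 and highest 25.3 CPM. The groups of points did not overlap, and the ratio was 10.0 (8.85 to 11.4, 6 of 6 libraries). Cells in neither subset held 1853 of the 5696 endothelial Nrp2 UMIs, at 43.5 CPM, and 137 CPM of Plxnd1, 239 CPM of Nrp1, 76.6 CPM of Sema3a and 64.0 CPM of Plxna4.
Plxnd1 was also higher in vascular cells, at 185 against 90.0 CPM, with library ranges of 169 to 199.6 and 59.5 to 104.7 CPM. Its ratio was 2.06 (1.94 to 2.19, 6 of 6 libraries). Nrp1 differed less, at 239 against 167 CPM (1.43-fold, 5 of 6 libraries), with overlapping ranges.
Sema3a had the reverse pattern. Endocardial cells had 85.7 CPM, with lowest 47.6, median 87.2 and highest 99.2 CPM. Vascular cells had 6.67 CPM, with lowest 3.07, median 5.48 and highest 11.9 CPM. The vascular level was 0.0779 of the endocardial one (0.0652 to 0.0925) and lower in every one of 6 libraries. Plxna4 was likewise lower in vascular cells, at 33.5 against 82.5 CPM (ratio 0.406, 0.370 to 0.445), in 6 of 6 libraries. Sema3e had 0 UMIs in the endocardial cells, and 3 counts there, the limit used here for a count of 0, would be 0.184 CPM. The cushion mesenchyme list shares Gata4, Tbx20 and Hapln1 with the markers of the endocardial subset. Its median was 2209 CPM in endocardial and 311 CPM in vascular cells, a difference that the gates partly set. The endothelial list had medians of 1239.9 and 3119 CPM in the same order. The part of these differences in the members' levels was not tested.

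Neural crest mesenchyme, the largest gated type, held low levels of most members when taken whole, and they were uneven along the Hox code. Crest cells of more posterior pharyngeal arches express Hox genes of higher paralogue groups. Of 5156 cells, 892 were in neither of 2 subsets compared, which are 2575 cells with Hoxa2 or Hoxb2 and no third-group Hox marker on (Hox2+ Hox3-) and 1689 with Hoxa3, Hoxb3 or Hoxd3 on (Hox3+), a marker being on with at least 2 UMIs.
Plxna2 was at 70.2 CPM in Hox3+ cells, with lowest 58.1, median 70.1 and highest 81.7 CPM. In Hox2+ Hox3- cells it was at 23.9 CPM, with lowest 21.2, median 23.8 and highest 27.8 CPM. The ranges were well apart and the ratio was 2.94 (2.80 to 3.07, 6 of 6 libraries).
Nrp1 was at 45.02 against 24.0 CPM (1.88-fold), with library ranges of 42.7 to 48.5 and 20.5 to 28.3 CPM. Plxna4 (24.5 against 8.73 CPM), Sema3c (12.3 against 4.31), Sema3d (7.68 against 1.83), Sema3a (155 against 93.4) and Plxnd1 (3.11 against 1.59 CPM) were higher in Hox3+ cells in 6 of 6 libraries as well. Nrp2 was not, at 15.97 against 17.4 CPM, with Hox3+ cells the higher in 3 of 6 libraries and a ratio of 0.916 (0.853 to 0.983). The median depth was 44234 UMIs in Hox3+ and 43265 in Hox2+ Hox3- cells, and the summed crest marker list had medians of 925 and 1018 CPM.
A smaller set of 256 crest cells had no Hox UMI of these genes and Hand2 on. It held more Sema3a (229 CPM, library range 161 to 267 over 4 libraries) and more Nrp2 (46.0 CPM, 34.7 to 62.6) than both Hox-positive sets. The 892 cells in neither Hox subset, which include this set, held 154 CPM of Sema3a and 31.4 CPM of Nrp2. Another 56 crest cells, without a UMI of these Hox genes or of Hand2, held 67.8 CPM of Sema3a and 11.7 CPM of Nrp2. Only library 1 had at least 20 of them.

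**Figure D4:**
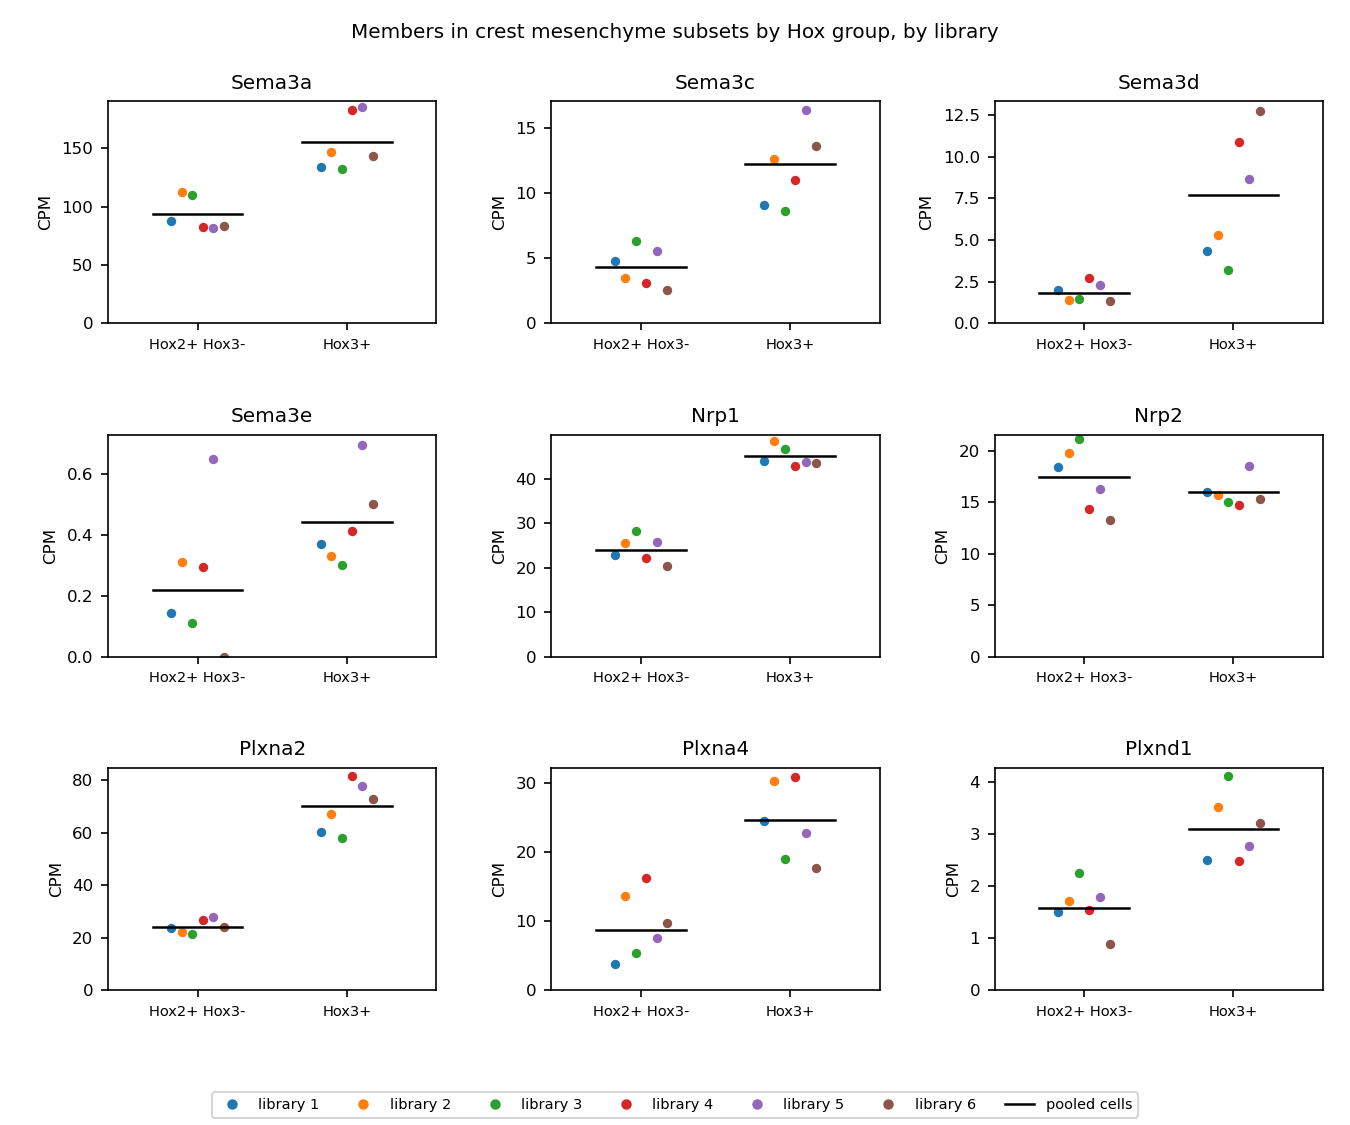
CPM of each member in crest mesenchyme with second-group Hox genes only (Hox2+ Hox3-) and with third-group Hox genes (Hox3+). Points are the 6 libraries and lines the pooled cells. Plxna2 points lie between 58.1 and 81.7 CPM in Hox3+ cells and between 21.2 and 27.8 CPM in Hox2+ Hox3- cells, while those of Nrp2 overlap.

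Detection in the same cell was counted for 9 pairs of members, 6 of them receptor pairs, at 5000 UMIs per cell, and different pairs were most frequent in different types. Nrp1 and Plxna4, a holoreceptor for Sema3a in axons, were both found in 682 of 1315 epicardial cells (51.9%, exact binomial interval 49.1 to 54.6). The share was 26.7% in crest and glia and 26.4% in neurons, and 0 of 1417 erythroid cells had both, for which the limit of 3 counts is 0.212%.
Nrp1 and Plxnd1 were found together in 35.4% of vascular endothelium (31.3 to 39.8) and 20.7% of endocardial cells (16.9 to 24.8). Nrp2 with Plxnd1 was found in 25.6% of vascular (21.8 to 29.6) and 2.58% of endocardial cells (1.30 to 4.57). The gap between the 2 subsets was wider than for the Nrp1 pair. Singly, Nrp2 was found in 44.3% of vascular and 6.10% of endocardial cells, Plxnd1 in 56.5% and 39.7%, and Nrp1 in 59.1% and 52.3%. Both neuropilins, which Sema3c can use together, were found in 81 of 209 outflow cardiomyocytes (38.8%).
Pairs with Plxna2 had other leading types. Nrp1 with Plxna2 was found in 16.9% of neurons (9.81% of epicardium), and Nrp2 with Plxna2 in 12.7% of paraxial mesoderm (3.95% of epicardium).
Ligand and receptor transcripts were also counted in the same cells. Sema3c and Nrp2 were both present in 29.2% of outflow cells (23.1 to 35.9) against 10.4% of anterior heart field. Singly, Sema3c was found in 38.8% and Nrp2 in 75.1% of outflow cells. Sema3d and Nrp1 were both present in 31.9% of epicardium (29.3 to 34.5), and singly in 45.02% and 67.9%. The pair shares depend on depth and on how often each gene was found singly. Whether a pair was found more often than its single shares would give was not tested. Without the reduction to 5000 UMIs the epicardial share of Nrp1 and Plxna4 was 90.0%.

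**Figure D5:**
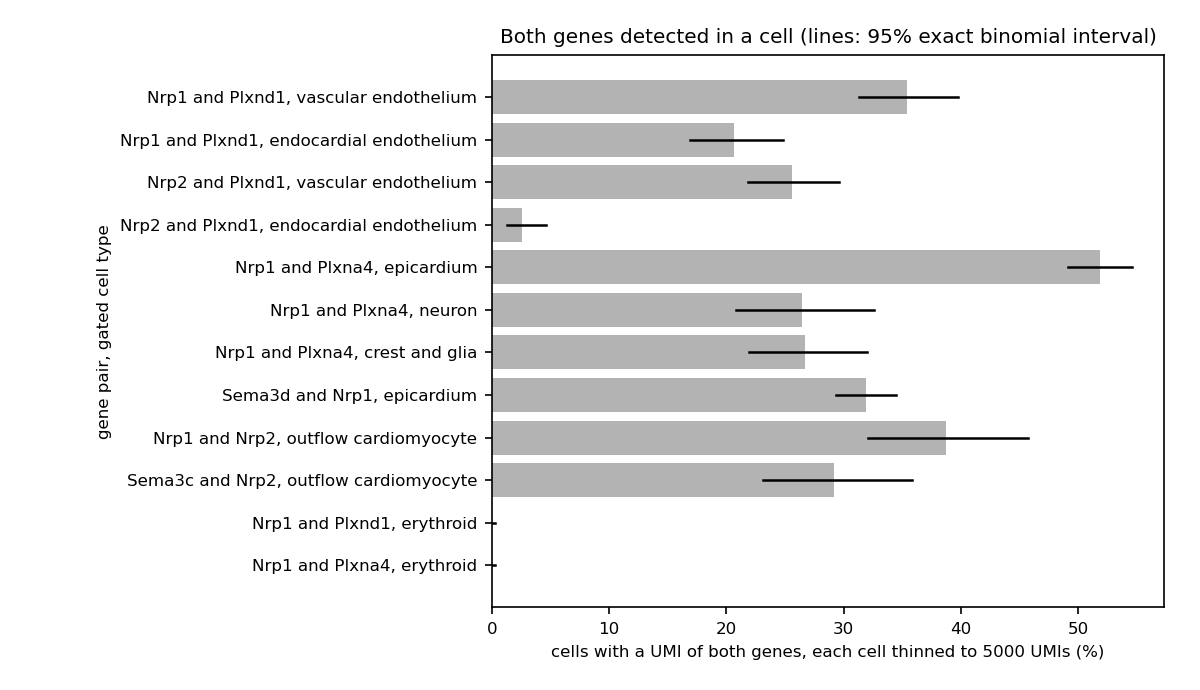
Share of cells (%) with at least 1 UMI of both genes of a pair, after each cell was reduced to 5000 UMIs. Bars are shares over all cells of a type or subset, and lines are 95% exact binomial intervals, which cover counting error only. Epicardium with Nrp1 and Plxna4 has the longest bar, at 51.9%, and the erythroid bars drawn, of Nrp1 with Plxnd1 and with Plxna4, are at 0.

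Of 47 further genes of the pathway, 37 reached 10 CPM in some type and 7 of those were at least 2-fold above the next type (18.9%, against 15.8% of all genes). Among 3 other class 3 ligands, Sema3f alone reached 10 CPM (14.2 CPM in surface ectoderm). Of 6 other plexins 5 reached it and 1 passed the rule, Plxna3 in neurons. It stood close to both limits, at 10.8 against 5.02 CPM in surface ectoderm (ratio 2.15), and neurons were higher in 4 of 5 libraries. Of 13 semaphorins of other classes 7 reached it and 0 passed.
Of 6 co-receptors 5 reached it and 3 passed, all in endothelium. Flt1, a receptor for vascular endothelial growth factor, had 322 CPM there against 43.9 CPM in cushion mesenchyme. Flt4, the receptor of lymphatic growth factors, had 38.3 against 4.69 CPM. The third, Kdr, had 192 CPM but is a marker of the endothelial gate, so its place was set by the gate.
All 19 intracellular effectors reached 10 CPM and 3 passed. Rnd1, a small GTPase that binds plexins inside the cell, was highest in epicardium, at 17.7 against 3.03 CPM in smooth muscle and mural cells and in 6 of 6 libraries. Dpysl4, of the collapsin response mediator family, had 55.6 CPM in neurons against 25.4 in branchiomeric muscle. Fes, a tyrosine kinase of blood cells, had 62.4 CPM in the 72 myeloid cells, with no library of 20 such cells to compare.

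For each member the 3 genes with the most similar levels over the 17 types were taken by Pearson's r of log2(CPM + 1), as a description over types that share libraries. How high the best r is for other genes was not examined. A gene named here can be highest in another type than its member, as Pdpn (epicardium) for Sema3c and Vim (endothelium) for Nrp1. For Plxnd1 they were Cdh5 (r = 0.928), itself an endothelial gate marker, Myct1 (0.925) and Vwf (0.914). For Sema3c they were Pdpn (0.942), Dtna (0.939) and Erc2 (0.928). For Sema3e they were Lrp2 (0.913), Ppl (0.911) and Itga3 (0.889).
For Sema3a the genes were Ahdc1 (0.930), Hsd17b10 (0.912) and Gas1 (0.884), and for Sema3d Lsr (0.872), Arhgap22 (0.851) and Bcar3 (0.841). For Nrp1 they were Creb5 (0.918), Vim (0.913), the intermediate filament of mesenchyme, and Csrp1 (0.906). Nrp2 had the weakest likeness, with Rchy1 (0.844), Lifr (0.824) and Rev3l (0.821). For Plxna2 they were Pank3 (0.939), Zbtb33 (0.901) and Zfp60 (0.901), and for Plxna4 Wsb2 (0.850), Ccs (0.838) and Anxa5 (0.824).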

How the data were processed

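Per the labels' protocols, cardiogenic tissue was dissociated for single-cell 3′ libraries on the Chromium platform of 10x Genomics (version 3 chemistry). The sample descriptions name a chromatin assay, whereas titles, library source and kit name RNA, and RNA was taken to be what was counted. The deposited values are whole-number UMI counts per gene and barcode, in 1 matrix for all samples. Cell Ranger 5.0.0 wrote it per the file headers. The submitters' processing notes also name mm10, CASAVA 1.8 and Seurat 4, without saying how they were used.

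Cells were kept with at least 2500 genes and at most 10% mitochondrial UMIs. The members and all lists were chosen with earlier results of these data known, and the numbers of markers a gate needs were set with the cells in view. A cell that passed gates of overlapping lists went to a ranked one, and smooth muscle cells could have at most 2 cardiomyocyte markers on. The 9 members are all named. Of the pathway lists, genes past 2-fold at 10 CPM are named, and for each member the 3 genes of most similar level. Doublets were marked per library by simulated doublets (2 per cell, neighbours numbering 0.5 times the square root of the cells). The rate was 0.8% per 1000 barcodes of the library, kept or not, which marked 2564 of the kept cells (7.13%). They stayed in the main values and were removed as an alternative. Other alternatives were a looser cell filter, 1 more marker per gate, thinning to 5000 UMIs, removal of shared barcodes, leaving out each library, and medians over libraries. Positions are from GENCODE M21 and promoters from RefSeq (GRCm38.p6). Python 3.11.15 with numpy 2.4.6, scipy 1.17.1 and scikit-learn 1.9.0 was used.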

Additional observations from a re-analysis of the deposited data

How the results depend on the processing

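The count of members at least 2-fold above the next type was 1 in the values reported. It became 2, by adding Sema3e, with cells of at least 1000 genes and at most 20% mitochondrial UMIs (2), with cells thinned to 5000 UMIs (2) and without the shared barcodes (2). Leaving out each library gave 1 to 2, with 2 when library 1 or library 2 was left out. The count of members that led in every library stayed within 5 to 7 under all alternatives run for it. The order of the leading pair turned for Sema3a with 1 more marker per gate (0.882) and without library 3 (0.966), the lowest of 0.966 to 1.23 over left-out libraries. It turned for Plxna2 without library 2 (0.978), without library 3 (0.9503) and with the median over libraries (0.989), with 0.9503 to 1.10 over left-out libraries, and the cause was not tested. The other 7 ratios kept their direction in the 12 alternatives. One of them moved by over 1.5 times, Sema3e, at 1.29 with 1 more marker per gate. Plxnd1 stayed between 6.48 and 9.17. No paired analysis was possible because no file used here maps the 6 libraries to the samples, so the edgeR comparison of streptozotocin with vehicle and its alternatives (replicate block, DESeq2, no filter, leaving out replicates) were not run. The ratio of outflow to ventricular Nrp2 stayed between 70.9 and 88.5 in 8 alternatives chosen after seeing the data. Those 8 alternatives kept the direction of each other ratio between subsets given here, except that of Sema3c between atrial and ventricular cells, whose interval includes 1. In 9 of the 17 types Sema3e was under 1 CPM, so its levels there rest on small counts.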

Other observations

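The libraries differed widely in some types, and those given here were chosen after their values were seen. In branchiomeric muscle, where 78.4% of cells were at the minimum number of markers, Sema3a was at 262, 306, 277, 92.01, 146 and 142 CPM in libraries 1 to 6. Nrp2 in the same cells was at 246, 283, 221, 146, 114 and 168 CPM in the same order, and Nrp1 at 13.9, 23.7, 18.6, 37.6, 53.5 and 21.04 CPM. Plxna4 in epicardium was at 378, 422, 402, 300.4, 308 and 286 CPM. No treatment is known for any of these libraries. The number of foregut mesenchyme cells differed too, with 3 and 5 cells in libraries 1 and 2 out of 605 in all. Cells that passed no gate held 75.5 CPM of Nrp1, 60.0 CPM of Plxna2 and 58.5 CPM of Nrp2. Cells that passed several gates held 13.98 CPM of Plxnd1, against 3.31 CPM in cells that passed none.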
